A study of Mus musculus with 6 samples.

Results

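The genes described here are 9 costimulatory receptors of T cells: the TNF receptor superfamily members Tnfrsf4 (OX40), Tnfrsf9 (4-1BB), Tnfrsf18 (GITR), Tnfrsf1b (TNFR2), Tnfrsf25 (DR3), Tnfrsf13b (TACI) and Cd27, and the immunoglobulin superfamily receptors Cd28 and Icos. They were found by symbol: a probe set, a group of array probes that reads a single transcript region, was taken where its only annotated gene was one of these, which gave 15 of the 45101 probe sets on the array. Cd28 and Tnfrsf1b had 2 probe sets each, Tnfrsf9 and Icos 3 each, and the other genes 1 each.

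Cultured mouse T cells were compared on 6 arrays, 3 titled 2D11 (replicates 1, 2 and 4) and 3 titled OvacD8 (replicates 1, 2 and 3). The 2D11 cells are labelled CD8aa Tregs. The series title calls such cells regulatory T cells of the periphery that see antigen on Qa-1, an MHC molecule of class Ib. The OvacD8 cells are labelled OT-1 CD8aa+TCRab+ T cells. OT-1 is a transgenic T cell receptor for an ovalbumin peptide. Per the labels, both are T cell clones, and both were kept with antigen-presenting cells and IL-2, each with its own antigen. The labels give no strain, age, sex or time since the last stimulation. Whether the replicates are separate cultures of a clone is not given, so a p-value covers the spread between these arrays alone and that spread may be technical. The antigen goes with the group and cannot be told apart from it.

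A T cell answers its antigen fully only with a second, costimulatory signal. CD28, present on resting T cells, receives it from CD80 and CD86 on antigen-presenting cells, and its relative ICOS, induced by activation, binds ICOS ligand; both recruit PI3 kinase through their cytoplasmic tails. OX40, 4-1BB and GITR appear or increase after activation and, like CD27, TNFR2 and TACI, bind TRAF adaptors that switch on NF-kB and prolong survival, while DR3 carries a death domain. On CD4 regulatory T cells GITR, OX40, ICOS and TNFR2 are characteristically high, and TACI is best known on B cells.

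Sequences just before the transcript start are shown for the TNF receptor whose probe set passed the test (Tnfrsf4) and for the one with the widest range over the arrays (Tnfrsf9). They come from RefSeq on build GRCm38.p6, plus strand, and end at the base before an annotated start: for Tnfrsf4 150 bases at chr4:156013445-156013594, for Tnfrsf9 250 bases at chr4:150919905-150920154 before the first start and 250 bases at chr4:150927749-150927998 before a second start, 7844 bases inside the gene. Capitals mark matches, on either strand, to an NF-kB motif (GGG, any 2 letters, then TTTCC), to TGANTCA (AP-1) or to GGAAAA (NFAT), which reads TTTTCC on the opposite strand; an NFAT match can lie inside an NF-kB match.
Tnfrsf4: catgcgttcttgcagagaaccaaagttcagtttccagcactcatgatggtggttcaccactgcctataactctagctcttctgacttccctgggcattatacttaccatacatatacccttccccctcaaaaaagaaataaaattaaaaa
Tnfrsf9 first start: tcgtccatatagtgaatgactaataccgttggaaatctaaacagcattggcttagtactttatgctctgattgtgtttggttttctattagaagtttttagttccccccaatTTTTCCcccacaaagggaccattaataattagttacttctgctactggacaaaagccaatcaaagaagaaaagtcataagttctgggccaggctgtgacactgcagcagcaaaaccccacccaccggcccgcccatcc
Tnfrsf9 second start: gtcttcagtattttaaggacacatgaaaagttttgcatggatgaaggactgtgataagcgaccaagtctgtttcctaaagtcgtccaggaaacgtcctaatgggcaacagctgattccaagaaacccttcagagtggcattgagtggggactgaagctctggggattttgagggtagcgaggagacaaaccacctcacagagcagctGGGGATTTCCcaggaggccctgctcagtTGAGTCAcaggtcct
The window before the second Tnfrsf9 start held an NF-kB match 43 to 34 bases before it and an AP-1 match 15 to 9 bases before it. Of 32851 RefSeq windows of the same 250 bases, 1.41% held the NF-kB letters, 6.75% the AP-1 letters and 20.4% the NFAT letters. The window before the first Tnfrsf9 start held the NFAT letters, and the shorter Tnfrsf4 window held none of the motifs. A match describes letters and is not a shown binding site, and which Tnfrsf9 start the arrays measured was not determined. Among the windows not shown, 1 of Tnfrsf25 also held the NF-kB letters, 218 to 209 bases before its start. Windows of Tnfrsf18, Tnfrsf25, Tnfrsf13b and Cd27 held the NFAT letters, so neither motif was particular to Tnfrsf9. Windows were available for 7 of the 9 genes. Cd28 and Icos are named only.

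The deposited values are RMA values on a log scale, taken here as log2, and every probe set had been set to a median of 0 over the 6 arrays. A value of 1 is therefore a value 2-fold above that probe set's own middle, and it says nothing of how abundant the transcript was. Differences are 2D11 minus OvacD8 with the standard error of limma's fit, and a probe set passed at a Benjamini-Hochberg adjusted p under 0.05 over all 45037 gene probe sets. In these cultures fewer cells with a transcript and less transcript per cell cannot be told apart.

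The OvacD8 arrays were not alike. Across 29526 probe sets that spanned at least 0.1, OvacD8 replicates 2 and 3 correlated at r = 0.85, and OvacD8 replicate 1 correlated with them at 0.30 and 0.35. The 2D11 arrays correlated with each other at 0.61 to 0.67. These are correlations of the centred values, not of whole array profiles, and arrays of different groups correlated at -0.65 to -0.44. Of 14 myeloid and dendritic cell probe sets of 12 genes, 4 (Csf1r, Clec7a, Lyz2 and Fcgr3) stood at least 1 above every other array on OvacD8 replicate 1. Cd68, of the same list, was instead higher on OvacD8 replicates 2 and 3, as given below. The list averaged -0.08 to -0.002 on the 2D11 arrays, 0.97 on OvacD8 replicate 1, and 0.07 and 0.01 on OvacD8 replicates 2 and 3. The poly-A spike-in controls, bacterial transcripts that track labelling, averaged -0.11 to 0.82 on the 2D11 arrays and 0.49 on OvacD8 replicate 1, against -1.58 and -2.39 on OvacD8 replicates 2 and 3. Results are therefore also given without OvacD8 replicate 1, where the groups coincide with the spike-in division and cannot be told apart from it, and in a spike-adjusted fit, which holds that division as a covariate. The spike-adjusted difference sets the 2D11 arrays against OvacD8 replicate 1 and assumes for this lone array the spread of the rest.

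Of the 15 receptor probe sets, 3 passed, all higher in 2D11: those of Tnfrsf4 and both of Cd28. Over all probe sets 4.06% passed, 2.00% higher and 2.05% lower in 2D11. The groups did not overlap for 6 of the 15, 5 of them higher and 1 lower in 2D11, against 20.3% of all probe sets. Without OvacD8 replicate 1, 7 passed, 5 higher and 2 lower in 2D11, against 10.6% of all probe sets. In the spike-adjusted fit, 6 passed, all higher, against 5.24% of all probe sets. The median difference of the 15 was 0.03, against 0.01 over all probe sets tested, and the differences ran from -2.65 to 1.69.

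**Figure D1:**
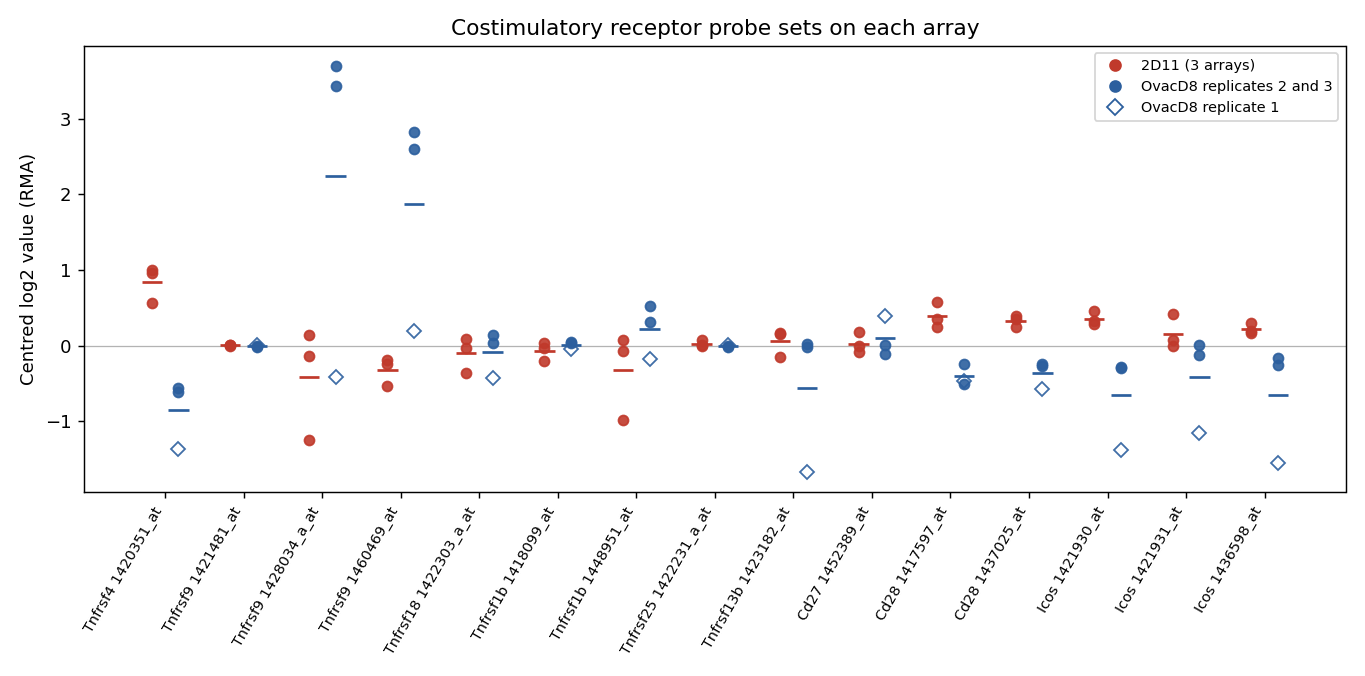
Centred log2 values of the 15 receptor probe sets on each array, 2D11 left (red) and OvacD8 right (blue) of each tick, with OvacD8 replicate 1 as an open diamond and group means as bars. Tnfrsf4 and Cd28 show groups that do not overlap, Tnfrsf9 is high on OvacD8 replicates 2 and 3 only in 2 of its 3 probe sets, and Icos and Tnfrsf13b are lowest on OvacD8 replicate 1.

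Cd28, the main costimulatory receptor, was higher in 2D11 by both probe sets. Probe set 1417597_at stood at 0.35, 0.25 and 0.57 on 2D11 replicates 1, 2 and 4, against -0.47, -0.25 and -0.51 on OvacD8 replicates 1, 2 and 3. Probe set 1437025_at stood at 0.39, 0.25 and 0.35 on those 2D11 arrays, against -0.57, -0.28 and -0.25 on those OvacD8 arrays. All 2D11 arrays lay above all OvacD8 arrays in both, and OvacD8 replicate 1 did not stand far from the other OvacD8 arrays. The differences were 0.80 ± 0.11 (1.74-fold; SE, n = 3 per group; limma adjusted p = 0.033) and 0.69 ± 0.10 (1.61-fold; adjusted p = 0.0361). They were 0.77 (adjusted p = 0.0496) and 0.59 (adjusted p = 0.00962) without OvacD8 replicate 1, and 0.86 (adjusted p = 0.0977) and 0.90 (adjusted p = 0.0102) in the spike-adjusted fit. Leaving out any of the other 5 arrays kept the size, from 0.66 to 0.88, and neither probe set passed then (adjusted p = 0.0708 to 0.132). Nor did they pass after median centring of the arrays (adjusted p = 0.0511 and 0.054) or quantile normalization (adjusted p = 0.0678 and 0.0586).

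Icos, the inducible relative of Cd28, was lowest on OvacD8 replicate 1. Probe set 1421930_at stood at 0.29, 0.33 and 0.45 on 2D11 replicates 1, 2 and 4, against -1.38, -0.29 and -0.30 on OvacD8 replicates 1, 2 and 3. Probe set 1436598_at stood at 0.30, 0.17 and 0.19 on those 2D11 arrays, against -1.55, -0.26 and -0.17 on those OvacD8 arrays. In these 2 probe sets the groups did not overlap, but OvacD8 replicate 1 lay over 1 below the other OvacD8 arrays. Probe set 1421931_at stood at 0.08, -0.01 and 0.41 on the 2D11 arrays, against -1.15, -0.12 and 0.01 on the OvacD8 arrays, so the groups overlapped. None of the 3 passed, with differences of 1.01 ± 0.33 (adjusted p = 0.235), 0.88 ± 0.41 (adjusted p = 0.406) and 0.58 ± 0.35 (adjusted p = 0.578; SE, n = 3 per group). Without OvacD8 replicate 1 they were smaller, at 0.65 (adjusted p = 0.0107), 0.43 (adjusted p = 0.0267) and 0.21 (adjusted p = 0.608), and the first 2 passed. In the spike-adjusted fit they were 1.73 (adjusted p = 0.00379), 1.77 (adjusted p = 0.00374) and 1.31 (adjusted p = 0.0496). The 4 myeloid transcripts that were high on OvacD8 replicate 1 moved opposite to Icos on that array, and their part in the result was not tested.

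Tnfrsf4 encodes OX40, an activation-induced receptor that sustains T cell survival. It stood at 1.00, 0.96 and 0.57 on 2D11 replicates 1, 2 and 4, against -1.36, -0.57 and -0.61 on OvacD8 replicates 1, 2 and 3. Each 2D11 array lay above each OvacD8 array, and OvacD8 replicate 1 was the lowest. The difference was 1.69 ± 0.27 (3.23-fold; SE, n = 3 per group; limma adjusted p = 0.0425), the only one of the passing receptor differences above 1. It was 1.44 without OvacD8 replicate 1 (adjusted p = 0.0165) and 2.21 in the spike-adjusted fit (adjusted p = 0.0171). Leaving out any of the other 5 arrays gave 1.61 to 1.83 with adjusted p from 0.0946 to 0.153, the highest without 2D11 replicate 2. Median centring of the arrays (adjusted p = 0.0562), quantile normalization (adjusted p = 0.0606) and robust variances (adjusted p = 0.0515) also ended the call.

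Tnfrsf18, which encodes GITR and lies beside Tnfrsf4 on chromosome 4, showed no such separation of the groups. It stood at -0.04, 0.09 and -0.37 on 2D11 replicates 1, 2 and 4, against -0.43, 0.04 and 0.14 on OvacD8 replicates 1, 2 and 3. The groups overlapped throughout, with a difference of -0.02 ± 0.20 (adjusted p = 0.968; SE, n = 3 per group).

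Tnfrsf9 encodes 4-1BB, a marker of recent T cell activation, and had the widest range of the 9 genes. Probe set 1428034_a_at stood at -0.13, 0.13 and -1.24 on 2D11 replicates 1, 2 and 4, against -0.41, 3.44 and 3.69 on OvacD8 replicates 1, 2 and 3. Probe set 1460469_at stood at -0.25, -0.20 and -0.53 on those 2D11 arrays, against 0.20, 2.60 and 2.82 on those OvacD8 arrays. OvacD8 replicates 2 and 3 were high, and OvacD8 replicate 1 sat with the 2D11 arrays, within their range in the first probe set and just above it in the second. Neither passed, at -2.65 ± 1.26 (adjusted p = 0.422) and -2.20 ± 0.77 (adjusted p = 0.261; SE, n = 3 per group). Without OvacD8 replicate 1 both passed, at -3.98 (adjusted p = 0.0203) and -3.03 (adjusted p = 0.00247). In the spike-adjusted fit they were -0.001 (adjusted p = 1.00) and -0.52 (adjusted p = 0.268). The third probe set, 1421481_at, spanned 0.03 over the arrays and showed none of this, and the mean of the 3 gave -1.62 ± 0.66 (adjusted p = 0.28 over 18193 genes).

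**Figure D2:**
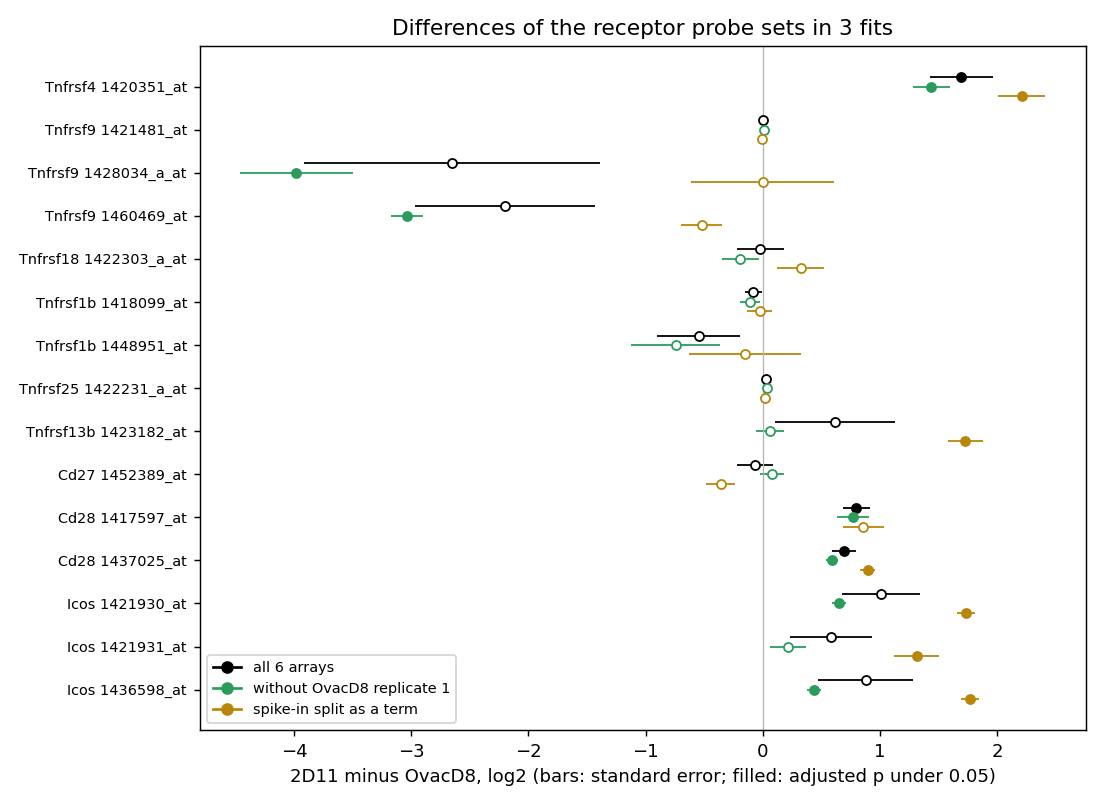
Difference of each receptor probe set, 2D11 minus OvacD8 on the log2 scale, with its standard error, in the fit of all 6 arrays (black), without OvacD8 replicate 1 (green) and in the spike-adjusted fit (gold); filled points passed. Tnfrsf4 lies between 1.44 and 2.21 in all 3 fits, and Tnfrsf9 1428034_a_at between -3.98 and -0.001.

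Other transcripts shared the split of Tnfrsf9 over the OvacD8 arrays. Ctla4, the inhibitory relative of Cd28 that binds the same ligands, stood at -0.04, 0.04 and -0.35 on 2D11 replicates 1, 2 and 4, against -0.35, 1.37 and 1.42 on OvacD8 replicates 1, 2 and 3. Cd86, a ligand of CD28 and CTLA-4 found on antigen-presenting cells and on activated T cells, stood at -0.58, -0.35 and -0.59 by probe set 1449858_at on the 2D11 arrays, against 0.35, 1.91 and 2.42 on the OvacD8 arrays. Cd68, a lysosomal gene of macrophages, stood at -0.71, -0.51 and -0.48 on the 2D11 arrays, against 0.48, 3.34 and 3.44 on the OvacD8 arrays. None of these 3 genes passed over all arrays: Ctla4 had a difference of -0.93 ± 0.54 (adjusted p = 0.546), Cd86 -2.07 ± 0.57 (adjusted p = 0.164) and Cd68 -2.99 ± 0.88 (adjusted p = 0.191; SE, n = 3 per group). Without OvacD8 replicate 1 they were -1.51 (adjusted p = 0.0107), -2.67 (adjusted p = 0.00625) and -3.96 (adjusted p = 0.000634). Csf1r (probe set 1419872_at) and Fcgr3, a growth factor receptor and an Fc receptor of macrophages, stood between -0.12 and -0.005 on OvacD8 replicates 2 and 3, where Tnfrsf9 was high. The myeloid genes Clec7a, at -0.86 and -1.10, and Lyz2, at -1.91 and -2.82, were lower on OvacD8 replicates 2 and 3 than on the 2D11 arrays. The part of myeloid transcripts in the Tnfrsf9 result was not tested. The spike-in controls followed the same division of the arrays as Tnfrsf9, and their part in the result was not tested.

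**Figure D3:**
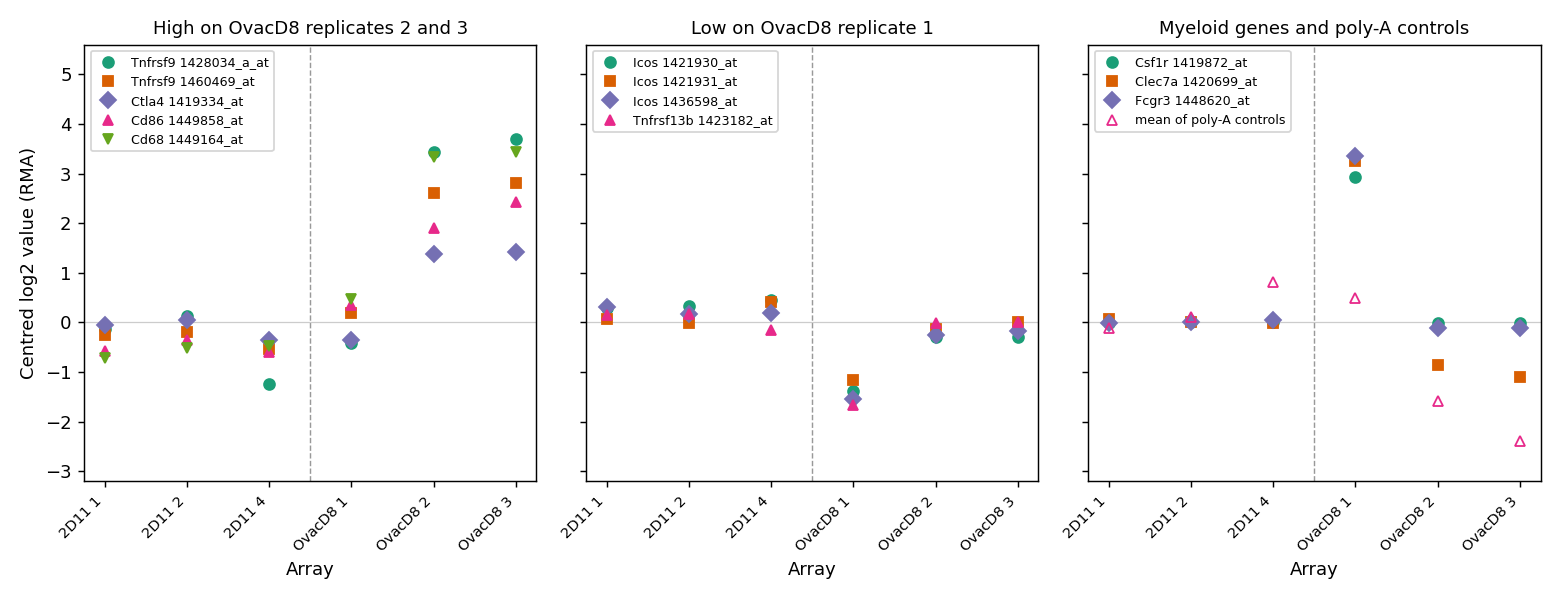
Centred log2 values on each array, 2D11 left and OvacD8 right of the dashed line, for transcripts high on OvacD8 replicates 2 and 3 (left panel), for Icos and Tnfrsf13b (middle panel), and for 3 myeloid genes with the mean of the poly-A spike-in controls (right panel). OvacD8 replicate 1 is low for Icos and Tnfrsf13b and high for Csf1r, Clec7a and Fcgr3.

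Tnfrsf13b, which encodes TACI, a receptor for BAFF and APRIL, stood apart on OvacD8 replicate 1 alone. It stood at 0.16, 0.17 and -0.15 on 2D11 replicates 1, 2 and 4, against -1.67, -0.02 and 0.02 on OvacD8 replicates 1, 2 and 3. The difference of 0.61 ± 0.51 (adjusted p = 0.746; SE, n = 3 per group) was 0.06 without OvacD8 replicate 1 (adjusted p = 0.771) and was 1.73 in the spike-adjusted fit (adjusted p = 0.0157). Of 17 B cell and plasma cell probe sets of 9 genes, none passed, where 4.06% of all probe sets passed. Their differences ran from -0.06 to 0.09.

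Tnfrsf1b encodes TNFR2, a receptor for TNF. Its wider probe set, 1448951_at, stood at -0.07, 0.07 and -0.98 on 2D11 replicates 1, 2 and 4, against -0.17, 0.32 and 0.52 on OvacD8 replicates 1, 2 and 3, and did not pass at -0.55 ± 0.35 (adjusted p = 0.616; SE, n = 3 per group). 2D11 replicate 4 was the low array, and the groups overlapped. The other probe set, 1418099_at, spanned 0.26 and differed by -0.08 ± 0.07 (adjusted p = 0.755).

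Cd27, the receptor for CD70 on naive and memory T cells, stood at 0.18, -0.01 and -0.09 on 2D11 replicates 1, 2 and 4, against 0.39, 0.01 and -0.11 on OvacD8 replicates 1, 2 and 3. OvacD8 replicate 1 was the highest array and the groups overlapped, with a difference of -0.07 ± 0.15 (adjusted p = 0.935; SE, n = 3 per group). Tnfrsf25, encoding DR3, spanned 0.09 over the arrays and differed by 0.03 ± 0.03 (adjusted p = 0.756). Tnfrsf25 and Tnfrsf9 probe set 1421481_at both spanned under 0.1, as 34.4% of all probe sets did, and without levels this does not show equal expression.

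Among themselves the receptors thus divided by which arrays stood apart. OvacD8 replicate 1 lay at least 1 from both other OvacD8 arrays, to the same side of them, in 6 of the 15 probe sets (40%): below them in the 3 of Icos, in Tnfrsf13b and in 2 of Tnfrsf9. Over all probe sets this held for 2.81%, though 34.4% of them spanned under 0.1 and could not lie so far apart. Probe sets of the same gene are not separate cases, and the receptors were chosen with earlier results of these data known. The shares therefore describe these arrays alone. OvacD8 replicate 1 was the lowest of the 6 arrays in 7 of the 15 (46.7%), among them all 3 of Icos, against 9.96% of all probe sets. It was the highest in 2 of the 15, and in 8381 of all 45037. Of 18 T cell marker probe sets, 0 lay at least 1 from both other OvacD8 arrays and 3 (16.7%) were lowest on OvacD8 replicate 1. Of 14 myeloid and dendritic cell probe sets, 5 (35.7%) lay at least 1 from both other OvacD8 arrays and 0 were lowest on OvacD8 replicate 1. In Csf1r, Clec7a, Lyz2 and Fcgr3 OvacD8 replicate 1 lay above the other OvacD8 arrays, and in Cd68 it lay below them.

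Of 12 ligands of these receptors, 9 were measured under a gene symbol of their own, with 16 probe sets, of which 1 was higher, 1 was lower and 14 did not pass, where 4.06% of all probe sets passed. Tnfsf4, the OX40 ligand, was lower in 2D11, where its receptor was higher: it stood at -0.36, -0.57 and -0.28 on 2D11 replicates 1, 2 and 4, against 0.33, 0.32 and 0.28 on OvacD8 replicates 1, 2 and 3. The difference was -0.71 ± 0.08 (adjusted p = 0.0174; SE, n = 3 per group), and it did not pass in the spike-adjusted fit (adjusted p = 0.0689). Lta, encoding lymphotoxin alpha, which also binds TNFR2, stood at 0.43, 0.61 and 0.38 on the 2D11 arrays, against -0.57, -0.38 and -0.95 on the OvacD8 arrays, and was higher by 1.11 ± 0.17 (adjusted p = 0.037; adjusted p = 0.148 in the spike-adjusted fit). Leaving out 1 array kept the call of Tnfsf4 in 3 of 6 fits and that of Lta in 2 of 6. The median of the ligand probe sets was 0.02, against 0.01 over all probe sets.

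Elsewhere in the TNF receptor superfamily, of 20 genes measured with 34 probe sets, 2 were higher, 0 were lower and 32 probe sets did not pass. Over all probe sets 4.06% passed, 2.00% higher and 2.05% lower in 2D11. Tnfrsf14, which encodes HVEM, the receptor for LIGHT and BTLA, stood at 1.82, 1.15 and 1.51 on 2D11 replicates 1, 2 and 4, against -1.15, -1.15 and -1.57 on OvacD8 replicates 1, 2 and 3. It was higher by 2.79 ± 0.22 (6.90-fold; adjusted p = 0.00611; SE, n = 3 per group). Tnfrsf11b, which encodes osteoprotegerin, a soluble decoy receptor for RANK ligand, stood at 1.18, 1.10 and 1.39 on the 2D11 arrays by probe set 1449033_at, against -1.10, -1.22 and -1.16 on the OvacD8 arrays. It was higher by 2.39 ± 0.09 (adjusted p = 0.000641), though its other probe set, 1418309_at, differed by 0.21 (adjusted p = 0.309). Both passed in each of the 6 fits that left out 1 array and in the spike-adjusted fit, which none of the 9 costimulatory receptors did. The median of the 34 probe sets was 0.01, the same to 2 decimals as over all probe sets.

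Of 19 TRAF adaptor and NF-kB genes with 49 probe sets, Birc2 was higher, 0 were lower and 48 probe sets did not pass, where 4.06% of all probe sets passed. The median of the list was 0.01. Birc2 encodes cIAP1, a ubiquitin ligase held by TRAF2, and was higher in 2D11 by 0.81 ± 0.08 (adjusted p = 0.0123; SE, n = 3 per group). Without OvacD8 replicate 1, where the groups coincide with the spike-in division, 7 of these probe sets were higher and 1 was lower. In that fit 10.6% of all probe sets passed in either direction. Several of the higher ones were of Nfkbia, and probe sets of the same gene are not separate cases. Of 17 genes of CD28 and ICOS signalling with 51 probe sets, 3 probe sets were higher in 2D11, 2 were lower and 46 missed the threshold, beside the same 4.06% of all probe sets. The median of this list was 0.004, against 0.01 over all probe sets. Rc3h2, encoding Roquin-2, a protein that promotes decay of Icos mRNA, was higher by 1.41 ± 0.16 (adjusted p = 0.0167) and 0.57 ± 0.05 (adjusted p = 0.01) in 2 of its 7 probe sets. Tbk1, a kinase that binds the ICOS tail, was higher by 0.29 ± 0.03 in probe set 1460315_s_at (adjusted p = 0.0142), while probe set 1422469_at had overlapping groups and differed by 0.23 ± 0.16 (adjusted p = 0.657). Grb2, an adaptor of the CD28 tail, was lower at -0.58 ± 0.03 (adjusted p = 0.00135), while its other probe set differed by 0.34 (adjusted p = 0.42). Malt1, of the complex that carries antigen receptor and CD28 signals to NF-kB, was lower at -0.73 ± 0.10 in probe set 1456126_at (adjusted p = 0.027), and its other probe sets differed by -0.04 (adjusted p = 0.942) and -0.003 (adjusted p = 0.994). Of these calls, that of Grb2 held in each of the 6 fits that left out 1 array, and those of Birc2, Tbk1, Malt1 and both Rc3h2 probe sets held in 2 to 4 of them. Of the 3 inhibitory relatives of CD28, Ctla4, Pdcd1 and Btla, none passed, and Ctla4 was lower without OvacD8 replicate 1, as given above.

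**Figure D4:**
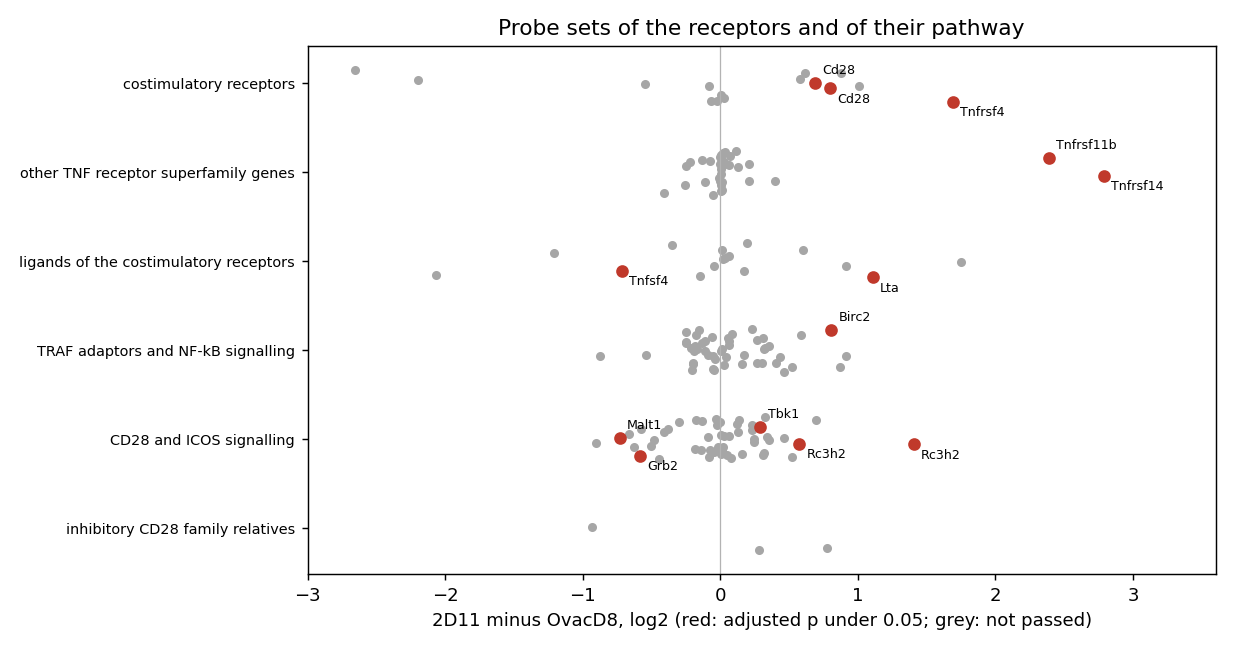
Difference of each probe set, 2D11 minus OvacD8 on the log2 scale, for the costimulatory receptors and 5 lists of their pathway; red points passed and are named, grey points did not. Tnfrsf14 at 2.79 and Tnfrsf11b at 2.39 lie farthest to the right, and the 2 points farthest left are Tnfrsf9.

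Some of the receptor genes are neighbours in the genome. Beside Tnfrsf4 and Tnfrsf18 on chromosome 4, the 3 nearest measured genes on either side were C1qtnf12, B3galt6 and Sdf4, and Ttll10, Gm13648 and 9430015G10Rik. Sdf4, next to Tnfrsf4, was higher in 2D11 by 1.69 ± 0.27 (adjusted p = 0.0435; SE, n = 3 per group) and 0.55 ± 0.06 (adjusted p = 0.0178) in 2 probe sets and differed by -0.28 (adjusted p = 0.531) in the third, and no probe set of the other 5 genes passed. On chromosome 1, Cd28, Ctla4 and Icos lie between Cyp20a1, Abi2 and Raph1 on one side and Pard3b, Pard3bos1 and Nrp2 on the other. Of these 6, Abi2 alone passed, in 1 of 3 probe sets, at 0.93 ± 0.08 (adjusted p = 0.00851). The share of all probe sets that passed was 4.06%, and calls in so few genes do not mark the neighbours as a set.

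The genes nearest in pattern were sought for the 3 receptors of widest range, as the smallest root mean square difference of centred values over the 6 arrays. For Tnfrsf9 1428034_a_at these were Dusp6 (0.412), Ndrg1 (0.467) and Pmm1 (0.508). Each of them stood at 2.94 or more on OvacD8 replicates 2 and 3 and between -0.40 and 0.11 on the 2D11 arrays and OvacD8 replicate 1. For Tnfrsf4 they were Hspa13 (0.178), Supt16 (0.2) and Fam3c (0.207), and for Icos 1436598_at Ifitm1 (0.0979), Tssc4 (0.132) and Tctex1d2 (0.14). With 6 arrays in 2 groups such likeness is a description of these arrays.

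The labelled cell types could not be checked as levels, since centring removed them. Among T cell markers, 10 genes with 18 probe sets, 1 probe set was higher and 3 were lower in 2D11, and 14 missed the threshold. Over all probe sets 2.00% were higher and 2.05% lower. The median difference of the 18 was 0.01. The lower ones were Cd8b1, the CD8 beta chain, at -2.36 ± 0.11 (adjusted p = 0.00142; SE, n = 3 per group), and 2 of the 4 probe sets of Cd247, the CD3 zeta chain, at -1.09 ± 0.07 (adjusted p = 0.00402) and -1.24 ± 0.08 (adjusted p = 0.00399). The higher one was Cd8a 1444078_at, of the CD8 alpha chain, at 0.85 ± 0.07 (adjusted p = 0.00814), while Cd8a 1440811_x_at stood at -2.40 ± 0.44 and did not pass (adjusted p = 0.0636). The mean of the T cell marker values, in which these few wide probe sets weigh most, was -0.25 to -0.10 on the 2D11 arrays, against 0.18 to 0.24 on the OvacD8 arrays, and its part in the receptor differences was not tested.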

How the data were processed

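Expression was measured on 6 mouse arrays. Per the labels' protocols, RNA from an RNeasy kit was amplified (Ovation RNA Amplification V2) and biotin-labelled. RMA, version not stated, made the values, per the submitters' processing notes. The authors deposited them as log2 values, a base that is assumed here, and every probe set has a median of 0 over the arrays. The small number of arrays limits the precision.

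Of 45101 probe sets, 64 array controls were left out. In the platform annotation, 34945 of the rest had 1 symbol, 932 had several and 9160 had none. All 15 receptor probe sets kept their symbol when matched by Entrez identifier to RefSeq (GRCm38.p6). Groups came from the sample titles. limma 3.58.1 in R 4.3.3 (lmFit, eBayes, two-sided, prior of 0.87 degrees of freedom) was fitted to 45037 probe sets, with Benjamini-Hochberg adjustment over all of them. The fit was also run on simulated arrays of independent normal noise. Those held no outlying array and no spike-in division, so the run does not cover these features of the data.

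The receptors, lists, tests and alternatives were chosen with earlier results of these data known, and the motifs after the array values were seen. Named genes were all receptors, up to 4 passing genes of each list by size (otherwise the widest), the genomic neighbours and the genes nearest in pattern. Cd86, Cd68, Csf1r, Clec7a, Lyz2, Fcgr3, Cd8a, Cd8b1, Cd247, Foxp3, Ikzf2 and Ikzf4 fall outside this and were named after their values were seen. Alternatives omitted single arrays, blocked on replicate number, weighted arrays, rescaled them (by median or quantiles), averaged probe sets per gene, required a minimum span or a 2-fold change, used robust variances, or adjusted for the spike-in division.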

Additional observations from a re-analysis of the deposited data

How the results depend on the processing

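Leaving out 1 array gave 0 to 7 passing receptor probe sets (0 to 5 higher, 0 to 2 lower in 2D11) and 811 to 4773 of all (390 to 2160 higher, 421 to 2613 lower), the highest counts without OvacD8 replicate 1. Without any of the other 5 arrays no receptor probe set passed. Against 3 receptor and 1827 of all probe sets (902 higher, 925 lower) over all arrays, the replicate block left 0 and 229 (87 higher, 142 lower). The labels do not say that the numbers pair samples, so they were not taken to do so. Same-numbered arrays deviated from their group means at r = -0.03 and 0.21, and differently numbered ones at -0.18 to 0.21. So few pairs cannot decide whether samples were paired. Median centring left 0 and 1555, and quantile normalization 0 and 1788 (676 higher, 1112 lower); Tnfrsf4 then had adjusted p of 0.0562 and 0.0606. Array weights, whose estimation did not converge, gave 9 (6 higher, 3 lower) and 17219 (9471 higher, 7748 lower), and Cd27 turned to 0.25. Gene means, which count genes and not probe sets, gave 2 receptors, Tnfrsf4 and Cd28, and 1214 of 18193 genes (600 higher, 614 lower). A span of at least 0.1 gave 3 and 2962 (1584 higher), and the spike-adjusted fit 6, all higher, and 2361 (1539 lower). The span setting tested 29526 probe sets alone, without Tnfrsf25 and Tnfrsf9 1421481_at, so its counts have a smaller base. A difference of at least 1 left 1 (Tnfrsf4, higher) and 1044 (454 higher, 590 lower). Robust variances left 2 receptor probe sets, both of Cd28.

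Small uncalled differences turned in sign. Leaving out 1 array gave -0.1935 to 0.1096 for Tnfrsf18, with values above 0 without 2D11 replicate 4, OvacD8 replicate 2 or OvacD8 replicate 3, and it stood at 0.22 with the replicate block and 0.32 in the spike-adjusted fit. Cd27 ran from -0.1726 to 0.0782, above 0 without OvacD8 replicate 1. Tnfrsf1b 1418099_at stood at 0.0039 with the block. Tnfrsf9 1421481_at ran from -0.002 to 0.0108, below 0 without OvacD8 replicate 2, and stood at -0.0027 with median centring, -0.0037 with quantile normalization, -0.0095 in the spike-adjusted fit and, as the mean of 3 probe sets, -1.62. The cause of these changes was not tested. With 3 arrays per group and no levels, an unmoved dim probe set cannot be told from an absent transcript.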

Other observations

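Among 6 genes that mark activated CD4 regulatory T cells, Nrp1 and Il2ra were lower in 2D11 and the other 4 genes did not pass. Of their 14 probe sets, 0 were higher and 5 were lower, where 2.05% of all probe sets were lower. The 5 were all of these 2 genes, and probe sets of the same gene are not separate cases. The median of the 14 was -0.73, against 0.01 over all probe sets tested. Nrp1, neuropilin-1, stood at -1.29, -1.20 and -1.30 by probe set 1448943_at on 2D11 replicates 1, 2 and 4, against 1.70, 1.94 and 1.20 on OvacD8 replicates 1, 2 and 3, a difference of -2.87 ± 0.20 (limma adjusted p = 0.00439; SE, n = 3 per group). Its probe sets 1418084_at and 1448944_at were lower at -2.10 ± 0.14 (adjusted p = 0.00416) and -1.57 ± 0.25 (adjusted p = 0.0435), and the last of these held in 2 of the 6 fits that left out 1 array. Il2ra, the alpha chain of the IL-2 receptor, was lower at -3.33 ± 0.22 (adjusted p = 0.00351) and -2.45 ± 0.22 (adjusted p = 0.0093). Ikzf4, which encodes Eos, had groups that did not overlap in the opposite direction in 2 of its 3 probe sets, at 1.37 ± 0.25 (adjusted p = 0.0643) and 1.01 ± 0.24 (adjusted p = 0.122), and did not pass. Ikzf2, which encodes Helios, did not pass in any of its 3 probe sets, the widest at -1.93 ± 0.38 (adjusted p = 0.0747). Foxp3, the defining transcription factor of CD4 regulatory T cells, spanned 0.07 over the arrays and differed by 0.02 (adjusted p = 0.812).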
